A study of Mus musculus with 6 samples.

Results

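Collagens, other matrix proteins and the genes of the cells that make them were followed in mouse intestine with and without SHP (small heterodimer partner, the product of Nr0b2), an orphan nuclear receptor that represses transcription through its partners. From a list of 40 such genes, a gene counted as a member when its counts summed over the 6 libraries reached at least 10, which held for 38 of the 23284 genes in the files. Lama2 and Mfap5 stayed under that minimum, with 7 and 5 counts in total when both groups are added. The tissue was small intestine, jejunum with ileum, taken from males aged 8 weeks after an overnight fast and 6 h of refeeding. Wild-type (WT) and SHP-KO groups had 3 libraries each. Strain, the make-up of the knockout allele, the share of jejunum and ileum, whether whole wall or mucosa was taken and whether each library is a separate animal are not stated in the labels. P-values thus reflect spread among the libraries alone, and part or all of that spread may be technical.

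Extracellular matrix of the gut has a fibrous part and a sheet-like part. Fibroblasts of the lamina propria and submucosa secrete fibrillar collagens, which assemble into tensile fibres whose width is limited by small proteoglycans such as decorin. Basement membranes, built on a network of collagen IV and laminin tied together by nidogens, lie under epithelium and around muscle cells and vessels. Smooth muscle cells, pericytes, glia and endothelium also make several of these proteins, so that none of the genes belongs to a single cell type.

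Total counts per library ran from 11265437 to 13511800 in WT and from 7956528 to 9289543 in SHP-KO, so every SHP-KO library was shallower than every WT one. Nr0b2 itself was counted 31, 14 and 23 times in WT (replicates 1 to 3, the order used throughout) and 1, 0 and 0 times in SHP-KO, so the libraries went with their labels. Of 12106 genes tested with edgeR's quasi-likelihood test, 70.6% had an adjusted p under 0.05, 35.2% higher and 35.4% lower in SHP-KO, and the median log2 fold change over all of them was -0.012. Counts of members called are to be read against those shares. Epithelial transcripts were abundant in every library, and the 10 enterocyte markers summed to 81900 to 84570 CPM (reads relative to library size, scaled by TMM) in WT and 86300 to 87110 CPM in SHP-KO. Matrix genes were scarce beside them, since the 38 members summed to 215.6 to 238.7 CPM in WT, of which Fbln1 alone made 119.4 ± 9.45 CPM (SD, n = 3).

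Sequence upstream of the start is shown for 5 members, from RefSeq on GRCm38.p6, a build other than the mm9 of the counts. They include Col3a1, a fibrillar collagen with the main fibrillar response, and Col5a1 and Col6a3, the collagen chains with the strongest rises. The others are Fbln1, the most abundant member, and Bgn, a proteoglycan that did not pass in either direction. Windows are the 250 bases before the annotated start, 5′ to 3′ on the gene's strand. Capitals mark matches on either strand to the TATA box (TATAAA), the CCAAT box, the GC box bound by Sp1 (GGGCGG) and part of the element of LRH-1, a nuclear receptor that SHP represses (AAGGTCA), with overlapping matches merged.
Col3a1 (chr1:45311288-45311537, plus strand): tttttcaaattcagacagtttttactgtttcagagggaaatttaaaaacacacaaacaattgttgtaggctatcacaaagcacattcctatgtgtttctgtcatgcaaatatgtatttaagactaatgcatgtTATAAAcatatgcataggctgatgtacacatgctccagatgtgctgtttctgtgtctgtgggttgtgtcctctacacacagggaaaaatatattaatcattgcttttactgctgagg
Col5a1 (chr2:27886175-27886424, plus strand): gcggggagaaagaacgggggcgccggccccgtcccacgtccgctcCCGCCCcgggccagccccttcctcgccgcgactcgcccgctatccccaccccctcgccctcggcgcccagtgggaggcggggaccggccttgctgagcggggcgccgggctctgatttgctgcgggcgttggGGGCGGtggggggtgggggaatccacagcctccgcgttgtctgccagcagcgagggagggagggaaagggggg
Col6a3 (chr1:90843972-90844221, minus strand): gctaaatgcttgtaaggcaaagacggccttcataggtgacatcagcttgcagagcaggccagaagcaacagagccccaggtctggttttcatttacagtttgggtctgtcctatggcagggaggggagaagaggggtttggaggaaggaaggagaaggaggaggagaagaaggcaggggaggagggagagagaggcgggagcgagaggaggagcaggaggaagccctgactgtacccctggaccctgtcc
Fbln1 (chr15:85205699-85205948, plus strand): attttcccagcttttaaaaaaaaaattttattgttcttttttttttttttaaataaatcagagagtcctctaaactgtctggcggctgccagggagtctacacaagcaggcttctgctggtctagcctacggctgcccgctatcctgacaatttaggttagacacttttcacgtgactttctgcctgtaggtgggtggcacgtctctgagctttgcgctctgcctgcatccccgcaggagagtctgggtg
Bgn (chrX:73483351-73483600, plus strand): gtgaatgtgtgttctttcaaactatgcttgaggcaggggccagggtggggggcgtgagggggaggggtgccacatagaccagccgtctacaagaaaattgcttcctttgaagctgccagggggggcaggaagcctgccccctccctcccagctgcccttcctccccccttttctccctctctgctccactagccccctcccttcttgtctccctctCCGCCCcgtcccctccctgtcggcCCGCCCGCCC
These windows differ widely in composition, from 35.2% GC in Col3a1 to 76.4% in Col5a1. Entries matched for 23 members, which have 27 windows. The TATA box stood in 3 of those windows (Col3a1, Postn and Vim), against 12.4% of all 32851 windows of that length. The CCAAT box stood in 9, against 33.8%, and the GC box in 15, against 32.7%. Fbln1 held a GC box in a window other than that shown. The LRH-1 letters were in 0 of the 27, against 4.08% of all windows. These matches describe letters in a window only.

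Of the 38 members, 34 passed the count filter and were tested, and 32 of them rose in SHP-KO, against 35.2% of all genes tested. None fell, and 2, the proteoglycans Bgn and Dcn, did not pass. For those 32 the lowest SHP-KO library lay above the highest WT library, a separation seen in 35.9% of all genes tested. No member had every SHP-KO library below every WT library, which 36.1% of all genes did. Their median with Bgn and Dcn was log2 1.43, against -0.012 over all genes. A log2 fold change of at least 1 with a call was seen in 27 members, against 11.9% of all genes. Of the 34, 9 passed the filter through SHP-KO only (Col5a1, Col5a2, Col12a1, Col16a1, Col6a3, Col15a1, Lama4, Eln and Fbn1, each under the filter's 0.973 CPM in at least 1 WT library), so a higher SHP-KO level was built into their selection. Among the 25 that were over it in every WT library, 23 rose and the median was log2 1.33. In bulk RNA, more cells of a type and more RNA per cell cannot be told apart.

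**Figure D1:**
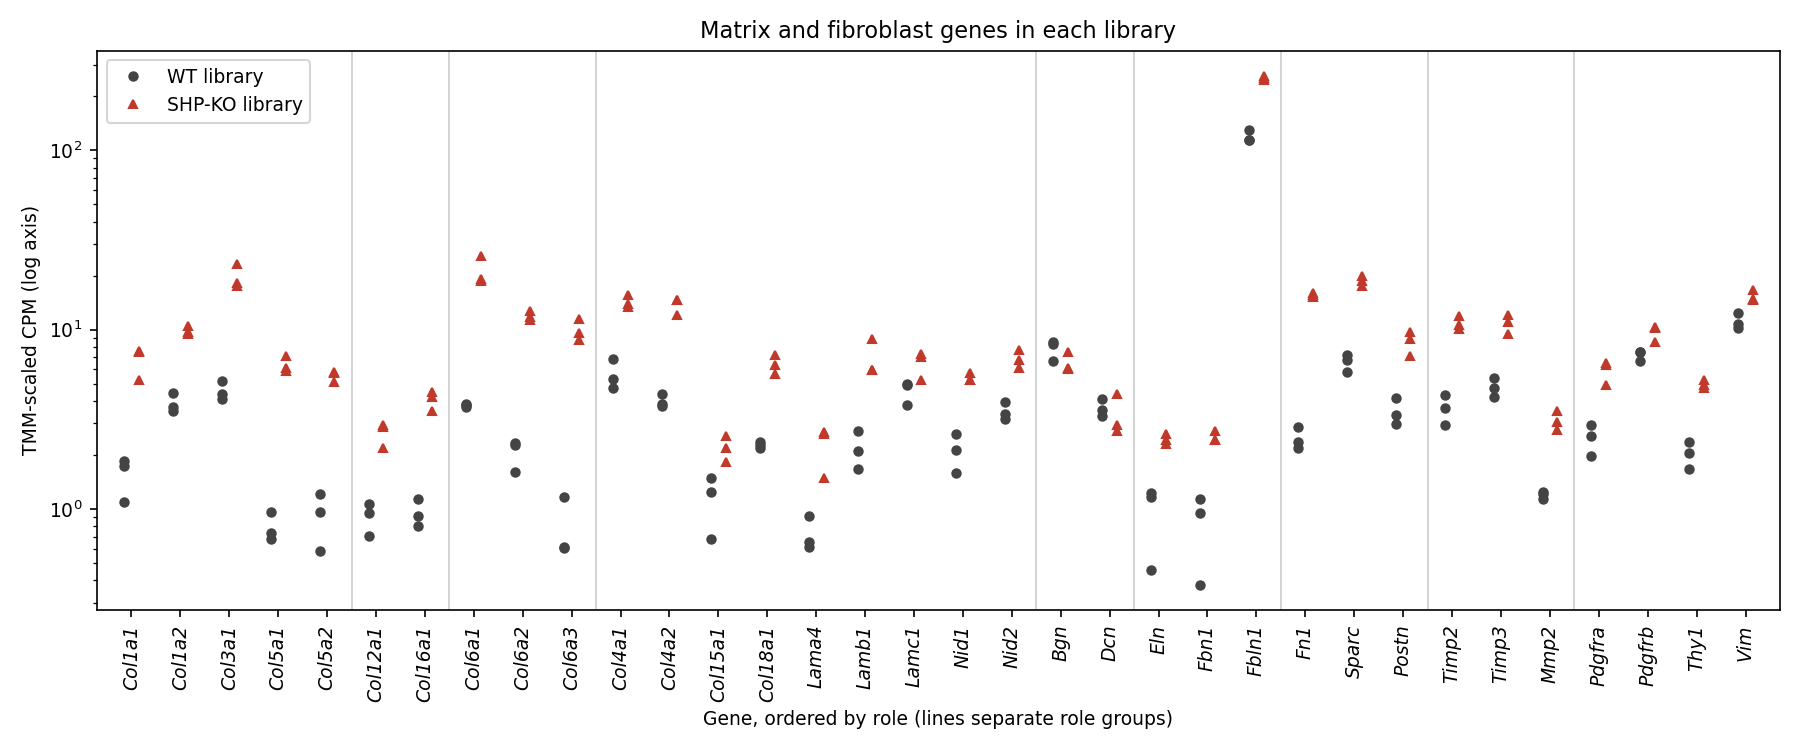
TMM-scaled CPM of the 34 tested members (log axis) in the 3 WT (circles) and 3 SHP-KO (triangles) libraries, 1 mark per library, ordered by role. Triangles lie above circles for every gene except Bgn and Dcn, and Fbln1 stands near 119.4 CPM in WT while most other members lie under 10 CPM.

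Fibrillar collagens, the rope-like collagens of connective tissue, all rose. Col3a1, the chain of collagen III, which is abundant in stretchable organs, was at 4.09, 5.17 and 4.38 CPM in WT and at 18.2, 23.1 and 17.4 CPM in SHP-KO. Each SHP-KO library was thus above every WT library (log2 2.12, SE 0.13, edgeR adjusted p 2.2e-26). Col1a1, the more numerous chain of collagen I, was at 1.10, 1.84 and 1.74 CPM in WT and 5.22, 7.55 and 7.45 CPM in SHP-KO. Behind those values stand 59 WT and 175 SHP-KO reads, and the groups lay apart (log2 2.13, SE 0.22). Col1a2, its partner chain, was at 4.46, 3.51 and 3.70 CPM in WT and 9.67, 9.41 and 10.4 CPM in SHP-KO. Its rise was smaller, at log2 1.33 (SE 0.16). Collagen V, which joins collagen I fibrils at their core and sets their diameter, had the steepest rise of this class. Neither of its chains was over the filter's 0.973 CPM in every WT library, so a higher SHP-KO level was built into their selection. Col5a1 went from 0.730, 0.964 and 0.680 CPM in WT to 5.85, 7.11 and 6.07 CPM in SHP-KO (log2 3.01, SE 0.25), and Col5a2 from a mean of 0.919 to 5.54 CPM (log2 2.59, SE 0.26). Summed over the 5 chains the level was 11 to 12.5 CPM in WT and 44.0 to 52.9 CPM in SHP-KO.

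Collagen VI, which forms beaded filaments close to cell surfaces, had the largest rise of the role groups by summed level. Its 3 chains are assembled into 1 molecule, and together they went from 6.57 to 6.75 CPM in WT to 40.1 to 46.8 CPM in SHP-KO, a ratio of means of 6.46. Col6a1 was at 3.80, 3.86 and 3.70 CPM in WT and 25.6, 18.7 and 19.3 CPM in SHP-KO. WT libraries were close together, and among SHP-KO libraries replicate 1 was the high one. Col6a2 rose from 2.08 ± 0.408 to 11.9 ± 0.695 CPM (SD, n = 3, log2 2.53, SE 0.17). Col6a3, the long chain, had 16, 7 and 8 WT reads and 75, 80 and 100 SHP-KO reads, or 1.17, 0.614 and 0.605 CPM against 9.54, 8.75 and 11.5 CPM. At log2 3.60 (SE 0.23, edgeR adjusted p 6.9e-26) it had the largest fold change of the tested members, from a WT level near the limit of the count filter. Col6a3 was not over that limit in every WT library, so a higher SHP-KO level was built into its selection.

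Fibril-associated collagens, which sit on fibril surfaces, were sparse. Col16a1 rose from 0.803, 1.14 and 0.907 CPM to 4.2, 3.5 and 4.47 CPM (log2 2.09, SE 0.28), and Col12a1 from a mean of 0.903 to 2.65 CPM (log2 1.52, SE 0.31). Both groups of libraries were apart in each gene. Neither gene was over the filter's 0.973 CPM in every WT library, so a higher SHP-KO level was built into their selection. Col14a1 was not tested, as only 13 WT and 16 SHP-KO reads fell on it, a count ratio of 1.83 with an exact 95% interval of 0.827 to 4.14. A difference in Col14a1 was not detectable at this depth.

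Basement membrane genes rose too, with 9 of 9 members called higher, against 35.2% of all genes tested. They did so over a lower range than the fibrillar collagens, at log2 0.53 to 1.79 with a median of 1.37. The 5 fibrillar chains ran from log2 1.33 to 3.01 with a median of 2.13. This contrast holds between the members of the classes only, is a description and was not tested. Col5a1 and Col5a2, at the top of the fibrillar range, passed the filter through SHP-KO only, as did Col15a1 and Lama4 here. The next fibrillar chain, Col1a1, was at log2 2.13. Tested basement membrane genes outside the members ran from log2 -1.04 to 2.49. Col4a1 and Col4a2, the chains of the common collagen IV network, are transcribed away from each other from starts that lie 3 bases apart on chromosome 8 (mm9, 11312826 and 11312829). Col4a1 was at 6.87, 4.73 and 5.29 CPM in WT and 13.9, 13.3 and 15.6 CPM in SHP-KO (log2 1.33, SE 0.13), and Col4a2 was at 3.73, 4.38 and 3.85 CPM in WT and 12.1, 14.5 and 14.6 CPM in SHP-KO (log2 1.79, SE 0.14). In both genes the groups were far apart compared with the scatter within them. Lamb1, a beta chain of many laminins, rose from 2.16 ± 0.522 to 6.93 ± 1.67 CPM, with SHP-KO replicate 2 at 8.86 CPM above the other 2 at 5.98 and 5.96 CPM. Lama4, a laminin alpha chain of vessel walls, rested on 28 WT and 58 SHP-KO reads (log2 1.61, SE 0.34).

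Lamc1, the gamma chain shared by most laminins, moved least in this class. It was at 4.89, 5.0 and 3.78 CPM in WT and 5.22, 7.33 and 6.99 CPM in SHP-KO, so that the lowest SHP-KO library was just above the highest WT one. It passed at log2 0.53 (SE 0.17, edgeR adjusted p 0.0046), but not without WT replicate 3 (edgeR adjusted p 0.053). Nidogens, which link laminin to collagen IV, rose: Nid1 by log2 1.37 (SE 0.21) and Nid2 by log2 0.98 (SE 0.18). Exons of Nid2 share 386 bases with 2700060E02Rik on the opposite strand, and reads in that stretch cannot be assigned by unstranded counting. Among the collagens that carry glycosaminoglycan chains, Col18a1, the source of endostatin, went from 2.28 ± 0.0883 to 6.40 ± 0.821 CPM (log2 1.49). Col15a1, its relative around vessels and muscle, was at 1.24, 1.49 and 0.680 CPM in WT and 2.55, 2.19 and 1.83 CPM in SHP-KO. The call at log2 0.95 (SE 0.31, edgeR adjusted p 0.0053) was lost without WT replicate 3, the low library (log2 0.67, edgeR adjusted p 0.072).

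Of the small leucine-rich proteoglycans among the members, Bgn and Dcn did not pass in either direction and Lum was not tested. Bgn (biglycan), which binds collagen and signals through Toll-like receptors when released, was at 8.33, 6.66 and 8.54 CPM in WT and 7.51, 6.02 and 6.07 CPM in SHP-KO. Libraries of the groups overlapped, and the difference did not pass (log2 -0.28, SE 0.15, edgeR adjusted p 0.087). It lay near the threshold: Bgn was called lower when WT replicate 2 was left out (log2 -0.38, edgeR adjusted p 0.027) and when SHP-KO replicate 1 was left out (log2 -0.39, edgeR adjusted p 0.038). Dcn (decorin), which coats collagen fibrils and binds TGF-beta, was at 3.29, 4.12 and 3.55 CPM in WT and 2.93, 2.73 and 4.35 CPM in SHP-KO. SHP-KO replicate 3 was the highest of the 6 libraries and the other 2 were the lowest, and the fit gave log2 -0.12 (SE 0.21, edgeR adjusted p 0.63). Without SHP-KO replicate 2 Dcn stood at log2 0.014. Lum (lumican), a regulator of fibril packing, was too sparse to test, at 19 WT and 16 SHP-KO reads, a count ratio of 1.25 and an exact 95% interval of 0.603 to 2.58. Bgn, Dcn and Lum together were at 11.2 to 12.5 CPM in WT and 9.3 to 11.2 CPM in SHP-KO. For Dcn the exact 95% interval of the count ratio ran from 0.696 to 1.21, below the smallest count ratio of a fibrillar chain (2.51, Col1a2). For Bgn the count ratio was 0.821, with an exact 95% interval of 0.676 to 0.995, on the side of a fall. These intervals cover counting error only.

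Dcn and Lum are neighbours on chromosome 10 (mm9), 47.3 kb apart with no other gene of the count files between them. Other neighbours among the members are Col3a1 and Col5a2 on chromosome 1, 24.6 kb apart, and Col6a2 and Col6a1 on chromosome 10, 85.4 kb apart. Both genes rose in each of those last pairs, by log2 2.12 and 2.59 and by log2 2.53 and 2.47.

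Ratios between members within a library do not depend on scaling. Chains and classes were compared through 7 of them, on levels per kilobase (RPKM). Dcn to Col1a1 was 6.76, 5.05 and 4.61 in WT and 1.26, 0.817 and 1.32 in SHP-KO. Bgn to Col1a1 was 14.9, 7.12 and 9.66 in WT and 2.83, 1.57 and 1.60 in SHP-KO. For both the groups lay apart, and the log2 ratio fell by 2.28 and 2.39. Lum to Col1a1 fell by 1.75 (log2), from a WT mean of -0.49 ± 0.81 to -2.24 ± 0.56 (SD, n = 3), on few Lum reads. Each of those 3 gave p = 0.1 in a two-sided exact permutation test, the smallest value that 3 against 3 libraries allow, and 0.175 after adjustment over the 7 ratios. All 3 have Col1a1 as denominator, which itself rose by log2 2.13. Their falls are thus not independent and mostly restate that rise.

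Ratios between collagen chains moved less. Col1a1 to Col1a2, the chains of collagen I, was 0.269, 0.575 and 0.514 in WT and 0.591, 0.878 and 0.782 in SHP-KO. Groups did not overlap, although WT replicate 2 and SHP-KO replicate 1 almost met (exact permutation p = 0.1, 0.175 adjusted). Col4a1 to Col4a2 was 1.36 in WT and 1.01 in SHP-KO as geometric means, with overlap (exact permutation p = 0.2, 0.28 adjusted). For Col6a1 to Col6a2 the geometric means were 1.73 and 1.65, and for Col3a1 to Col1a1 they were 2.52 and 2.47, with exact permutation p = 0.7 and p = 1.

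**Figure D2:**
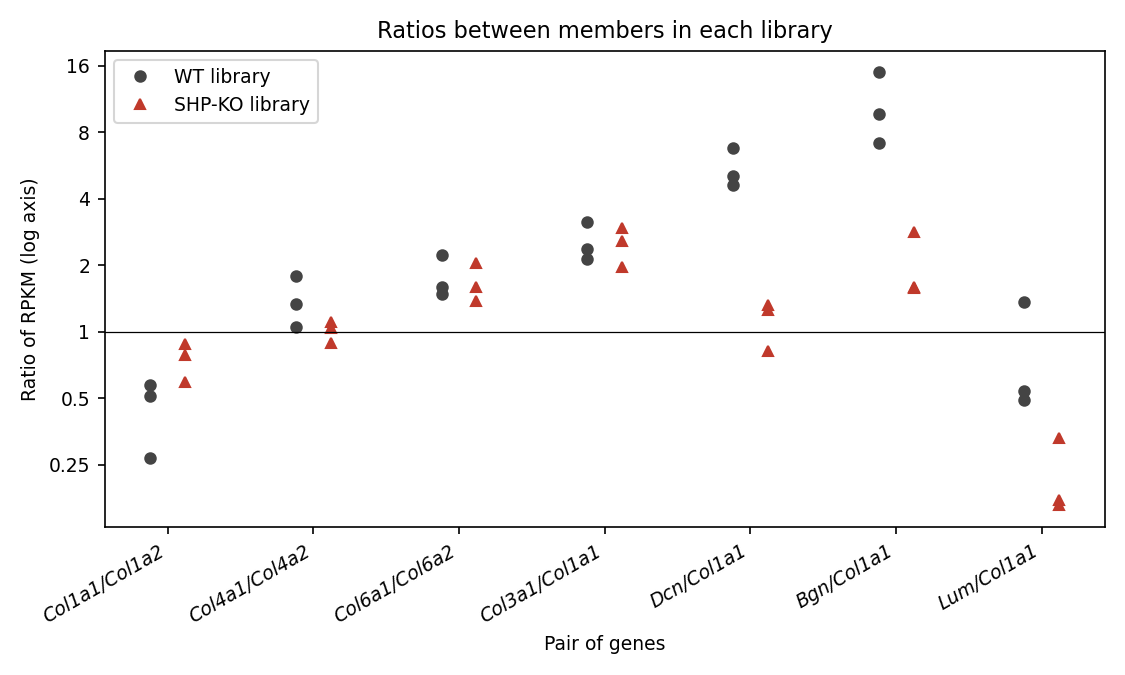
Ratio of RPKM between 2 members (log axis) for the 7 pairs, with 1 mark per library for WT (circles) and SHP-KO (triangles). Dcn, Bgn and Lum relative to Col1a1 are lower in all SHP-KO libraries, whereas Col6a1/Col6a2 and Col3a1/Col1a1 overlap.

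Elastic fibre genes encode elastin and the microfibrils on which it is laid down. Eln (elastin) was at 1.17, 1.23 and 0.453 CPM in WT and 2.29, 2.63 and 2.41 CPM in SHP-KO, and the groups were apart (log2 1.37, SE 0.32). Fbn1, the fibrillin of microfibrils, was at 0.95, 1.14 and 0.378 CPM in WT and 2.42, 2.73 and 2.41 CPM in SHP-KO (log2 1.63, SE 0.32). WT replicate 3 was the low library in both, and without it the log2 fold changes were 1.02 and 1.27. Neither Eln nor Fbn1 was over the filter's 0.973 CPM in every WT library, so a higher SHP-KO level was built into their selection. Fbln1 (fibulin-1), which binds fibronectin, laminin and elastin, had 1560, 1486 and 1507 WT reads and 1928, 2315 and 2258 SHP-KO reads, or 113.9, 130.3 and 113.9 CPM against 245.4, 253.2 and 258.7 CPM. Libraries of a group differed little from each other. Its rise of 2.11-fold (log2 1.08, SE 0.039, edgeR adjusted p 5.1e-41) had the smallest SE among the members and rests on the most reads. Fbln2, its relative, was below the test's filter with 10 WT and 26 SHP-KO reads, a count ratio of 3.87 (exact 95% interval 1.81 to 9.0). Untested here, Fbln2 was higher in the authors' deposited table (log2 1.89, adjusted p 0.0052).

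Adhesive and matricellular glycoproteins rose in all 3 cases, against 35.2% of all genes tested. Fn1 (fibronectin), the adhesive protein that cells bind through integrins, was at 2.85, 2.37 and 2.19 CPM in WT and 15.9, 15.6 and 15.1 CPM in SHP-KO. SHP-KO libraries hardly differed from each other, and the change (log2 2.64, SE 0.15, edgeR adjusted p 3.0e-28) was behind only those of Col6a3 and Col5a1. Sparc (osteonectin), a collagen-binding chaperone of the matrix, rose from 6.57 ± 0.723 to 18.6 ± 1.22 CPM (SD, n = 3). Postn (periostin) was at 4.16, 2.98 and 3.33 CPM in WT and 7.13, 9.73 and 8.82 CPM in SHP-KO (log2 1.29, SE 0.17).

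Matrix turnover genes rose on the side of the protease and of its inhibitors. Mmp2, a gelatinase that degrades collagen IV and denatured collagen, went from 1.24, 1.14 and 1.21 CPM to 3.05, 3.50 and 2.75 CPM (log2 1.36, SE 0.28). Timp2, which both inhibits and helps to activate Mmp2, rose by log2 1.60 (SE 0.16), and Timp3, the inhibitor that stays bound to matrix, by log2 1.17 (SE 0.15). In each the groups were apart. Lox, the enzyme that cross-links collagen and elastin, was seen in 7 WT and 3 SHP-KO reads, and a difference was not detectable at this depth (count ratio 0.638, exact 95% interval 0.107 to 2.80).

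Genes of the mesenchymal cells themselves rose in 4 of 4 cases, from log2 0.43 to 1.30, against 35.2% of all genes tested called higher. Pdgfra, the PDGF receptor of fibroblasts and of subepithelial telocytes, was at 2.92, 2.54 and 1.97 CPM in WT and 6.36, 4.92 and 6.53 CPM in SHP-KO (log2 1.25, SE 0.20). Thy1, a surface glycoprotein of fibroblasts that T cells and neurons also carry, rose from 2.03 ± 0.353 to 4.96 ± 0.272 CPM (log2 1.30, SE 0.22). Pdgfrb, the receptor of pericytes and many fibroblasts, was at 7.45, 6.66 and 7.48 CPM in WT and 8.53, 10.2 and 10.3 CPM in SHP-KO, a small rise (log2 0.43, SE 0.14, edgeR adjusted p 0.0041). Vim (vimentin), the intermediate filament of mesenchymal and blood cells, was at 10.2, 12.4 and 10.7 CPM in WT and 14.6, 14.8 and 16.6 CPM in SHP-KO, also a small rise (log2 0.47, SE 0.11, edgeR adjusted p 0.00011). The authors' deposited table, which an edgeR exact test with an assumed coefficient of variation (CV) of 0.2 gave again, lists 35 members, of which 30 were higher at an adjusted p under 0.05, against 19.0% of its genes. Bgn, Dcn, Lamc1, Pdgfrb and Vim did not pass in the authors' deposited table.

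**Figure D3:**
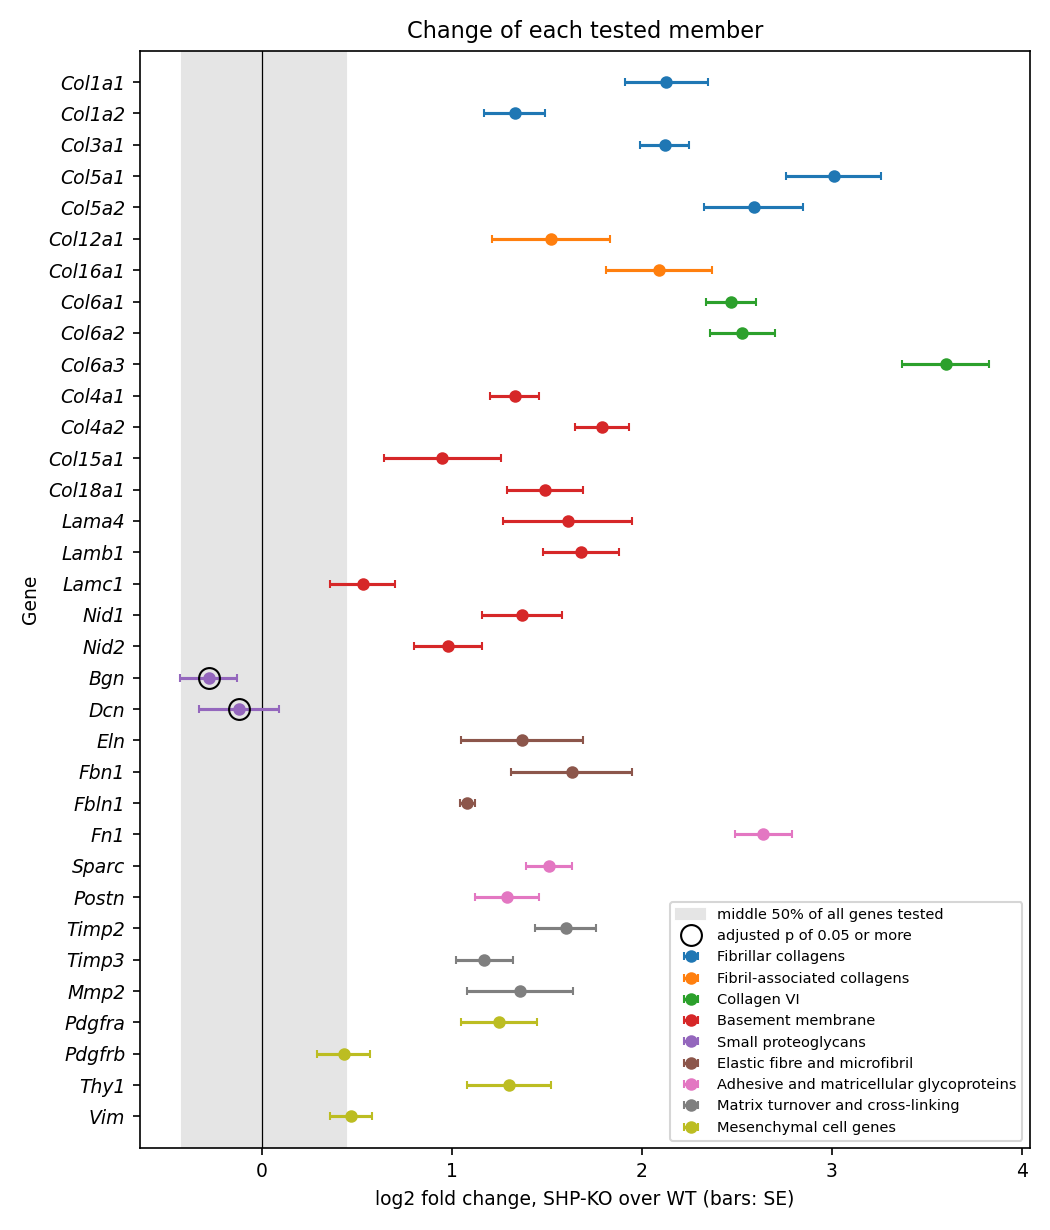
Log2 fold change (SHP-KO over WT) with its SE for the 34 tested members, coloured by role, over a grey band for the middle 50% of all tested genes (-0.42 to 0.44). Col6a3 lies at 3.60 and Col5a1 at 3.01, and the ringed Bgn and Dcn, which did not pass, lie inside the band.

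Ranked by level per kilobase, the members changed places. In WT the order was Fbln1 (35.5 RPKM), Vim (6.06), Bgn (3.28), Sparc (2.86) and Dcn (1.75), where Bgn and Sparc overlapped between libraries and the other neighbours did not. In SHP-KO it was Fbln1 (75.2 RPKM), Vim (8.36), Sparc (8.11), Col6a1 (5.33) and Col3a1 (3.52), with overlap between Vim and Sparc and none between Sparc and Col6a1, while Col6a1 at 4.70 to 6.43 lay above Col3a1 at 3.13 to 4.15. Bgn went to rank 9 and Dcn from rank 5 to rank 17 of 38. Within a genotype the members had no common high library in SHP-KO, being highest in replicates 1, 2 and 3 in 7, 14 and 13 cases. In WT, replicate 2 was highest for 18 of 34, against 35.2% of all genes.

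Proteins that fold and process collagen were read from the same fit. Of 13 tested genes of that list, 8 rose, 1 fell and 4 did not pass, against 35.2% higher among all genes. Serpinh1 (HSP47), the chaperone dedicated to procollagen, rose from 3.49 ± 0.523 to 11.5 ± 0.731 CPM (log2 1.71). P4hb, a subunit of prolyl hydroxylase that also acts in general protein folding, rose by log2 0.76, and Bmp1, the procollagen C-proteinase, by log2 0.36. Ppib, a prolyl isomerase of collagen and other secreted proteins, fell by 0.54 on the log2 scale. TGF-beta pathway genes, which include the main inducers of collagen transcription, went both ways. Of 15 tested, 6 were higher, 7 lower and 2 not passing, beside 35.2% higher and 35.4% lower over all genes. Tgfbi, a secreted target of the pathway, Smad3, which carries its signal, and the receptors Tgfbr1 and Tgfbr2 were lower, at log2 -1.77, -1.16, -1.44 and -1.22. Tgfbr3 (betaglycan) rose from 0.916 ± 0.0447 to 7.79 ± 0.470 CPM (log2 3.07). Ltbp3, Ltbp1 and Ltbp4, which store latent TGF-beta in the matrix, rose by log2 2.80, 1.39 and 1.19, as did Ctgf and Tgfb3 by log2 1.54 and 1.5. Tgfbr3, Ltbp3 and Tgfb3 were not over the filter's 0.973 CPM in every WT library, so they too were tested through their SHP-KO level.

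Receptors for collagen and laminin split, with 5 higher, 8 lower and 2 not passing of 15, against 35.2% higher and 35.4% lower over all genes. Sdc1, a syndecan of epithelium and plasma cells, and Itgb5 were lower, at log2 -1.30 and -0.84. Higher were Itga5, the fibronectin receptor chain (log2 2.56), Ddr2, a collagen receptor of mesenchymal cells (log2 2.09), Bcam, a laminin receptor (log2 1.24), and the epithelial integrin chains Itgb4 (log2 0.48) and Itga3 (log2 0.30). With the GC and length offset described further on, Itga3 turned to log2 -0.23 and Itgb4 and Bmp1 were not called (log2 -0.05 and 0.07). By the exact test at an assumed CV of 0.2 the receptors gave 3 higher and 5 lower, without Itga3 and Itgb4, and Bmp1 and Ppib were not called. Basement membrane genes outside the members gave 6 higher, 2 lower and 1 not passing of 9. Agrn, Lama5 and Hspg2 rose by log2 1.54, 2.49 and 1.64, whereas Lamb3, a laminin chain of epithelium, was lower, at log2 -1.04, and Lama3 rose by log2 0.33, a call that the exact test at an assumed CV of 0.2 did not make (adjusted p 0.33).

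Other proteoglycans and glycoproteins gave 9 higher, 1 lower (Srgn, of blood cells, log2 -1.38) and 2 not passing of 12. Over all genes 35.2% were higher and 35.4% lower. Podn, a further leucine-rich proteoglycan, rose from 30.6 ± 0.304 to 100.5 ± 6.12 CPM (log2 1.71). Ogn and Prelp, of the same family as Bgn, Dcn and Lum, rose by log2 1.64 and 1.48. Aspn and Fmod, also of that family, were too sparse to test. Aspn had 28 WT and 23 SHP-KO reads (count ratio 1.22, exact 95% interval 0.673 to 2.2), and Fmod had 4 and 0. Tnc and Tnxb, the tenascins, rose by log2 2.78 and 3.23. Of the 9 higher genes, 6 were over 0.973 CPM in every WT library. Prelp and Tnxb were not, so they were tested through their SHP-KO level. Of 7 tested matrix proteases and inhibitors outside the members, 2 were higher, 3 lower and 2 not passing, beside 35.2% and 35.4% over all genes. Mmp14 and Mmp10 rose by log2 0.93 and 1.29, and Adam10 and Mmp15 were lower, at log2 -0.66 and -0.56. Mmp10 was also not over 0.973 CPM in every WT library. Another 13 genes of that list were too sparse to test.

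Markers of several other cell types rose as the members did, while those of others fell or split. The part of these cell types in the changes above was not tested. Counts of genes in this and the next paragraph stand beside 35.2% of all genes called higher and 35.4% called lower. Smooth muscle markers rose in 14 of 14 tested genes, from a sum of 444.3 to 450.5 CPM in WT to 1677 to 1701 CPM in SHP-KO, a ratio of 3.76 beside 2.68 for the members without Fbln1. Acta2, Flna and Des, the genes with the smallest p there, were at log2 3.02, 2.42 and 2.22. Fibroblast markers outside the members rose in 10 of 13 tested genes, with 3 not passing and sums of 20.6 to 21.1 CPM in WT and 62.7 to 69.7 CPM in SHP-KO. By smallest p, Il33, Gas1 and Fap were at log2 2.64, 3.12 and 2.52. Of those 10, 7 were not over the filter's 0.973 CPM in every WT library, Gas1 and Fap among them, and of the 6 tested genes that were, 3 rose. Pericyte markers rose in 4 of 5 (13.4 to 14.7 CPM against 32.9 to 33.9), among them Rgs5, Mcam and Abcc9 at log2 2.57, 1.99 and 2.12. Enteric neuron and glia markers rose in 5 of 6 (14.9 to 17.6 CPM against 37.0 to 41.7), with Prph, Tubb3 and Uchl1 at log2 2.05, 2.87 and 2.23 and Ret lower at log2 -0.34. Of those 5, 2 were over 0.973 CPM in every WT library.

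Of 7 blood endothelium genes 5 rose, 1 fell and 1 did not pass, with Esam, Eng and Tie1 at log2 2.27, 1.81 and -1.30 (13.0 to 14.6 CPM in sum against 21 to 21.8). None of the 5 that rose was over 0.973 CPM in every WT library. Adipocyte markers rose in 6 of 6 (127.5 to 130.5 CPM against 174.2 to 186.6), with Fabp4, Car3 and Plin4 at log2 2.92, 4.69 and 2.77, 3 of the 6 being over 0.973 CPM in every WT library. The 6 ran from log2 0.25 to 4.69, and the exact test at an assumed CV of 0.2 called 4 of them higher. Lymphatic endothelium had 1 tested gene, Lyve1, which did not pass (log2 -0.19), sums of 4.16 to 6.05 CPM against 4.16 to 6.11 CPM, and no count of Ccl21a in any library. Of the mesothelial list only Krt19 and Msln could be tested and both were lower, at log2 -0.82 and -2.89. Krt19 is also an epithelial keratin and makes up most of that list's sum (1260 to 1275 CPM against 694.5 to 727.5). Wt1 and Lrrn4, which define mesothelium, had no count in WT, whereas every gene of that list was counted in SHP-KO. Both were too sparse to test. B cell markers fell in 8 of 8, from 77.5 to 82.6 CPM in WT to 1.15 to 1.38 CPM in SHP-KO, among them Cd79a and Cd79b at log2 -5.30 and -5.27. Of 10 enterocyte markers 5 fell, 4 rose and 1 did not pass, beside 35.4% lower and 35.2% higher over all genes. Sis and Cdx2 were among the lower ones, at log2 -1.24 and -0.92. Alpi, Fabp2, Krt20 and Vil1 rose, at log2 0.42, 0.23, 0.17 and 0.14. By the exact test at an assumed CV of 0.2, 2 of those 10 were lower and 0 higher.

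**Figure D4:**
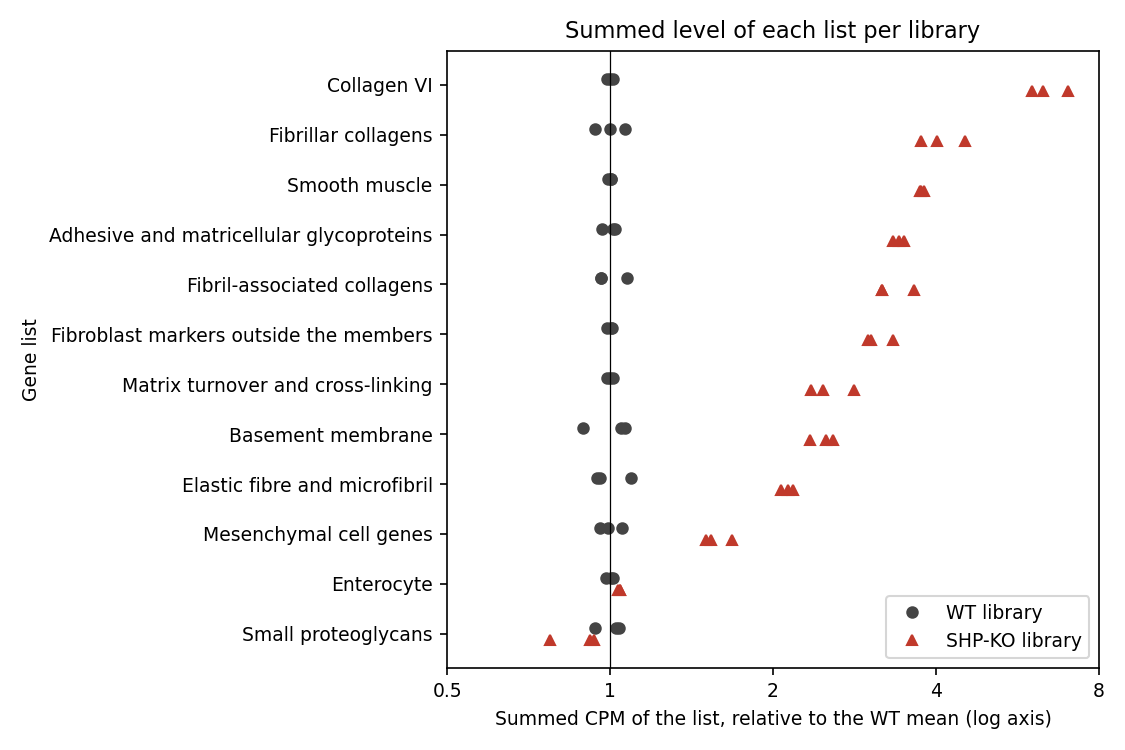
Summed CPM of each gene list in each library, divided by the mean of the WT libraries (log axis), for WT (circles) and SHP-KO (triangles). Collagen VI (ratio of means 6.46) and fibrillar collagens (4.10) have larger ratios of means than smooth muscle (3.76), although the lowest fibrillar SHP-KO library overlaps the smooth muscle ones, basement membrane (2.48) and mesenchymal cell genes (1.57) lie below it, and small proteoglycans (0.876) lie under 1.

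Base composition and length moved with the fold changes as well. Across 12003 tested genes with a GC value, the median log2 fold change went from -0.24 in the lowest of 10 bins of transcript GC to 0.24 in the highest. It was 0.56, with 69.2% called higher, for the 146 genes in both the highest GC bin and the highest of 5 length bins. The part of composition and length in the members' changes was not otherwise tested. Tested members had a median GC of 54.1% and a median length of 5262 bases, against 49.9% and 2841 bases over all genes. Among the 34 the Spearman correlation of log2 fold change was 0.45 with length and 0.31 with GC, values over genes that share the same libraries, against 0.02 and 0.22 over all genes. With an offset for GC and length in the fit, added after the data were seen, 30 of 34 members rose and the median was log2 1.27. Col15a1 and Pdgfrb were then no longer called (edgeR adjusted p 0.10 and 0.082). Col6a3 stood at log2 3.43, Col4a2 at log2 1.26 and Col18a1 at log2 0.95.

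**Figure D5:**
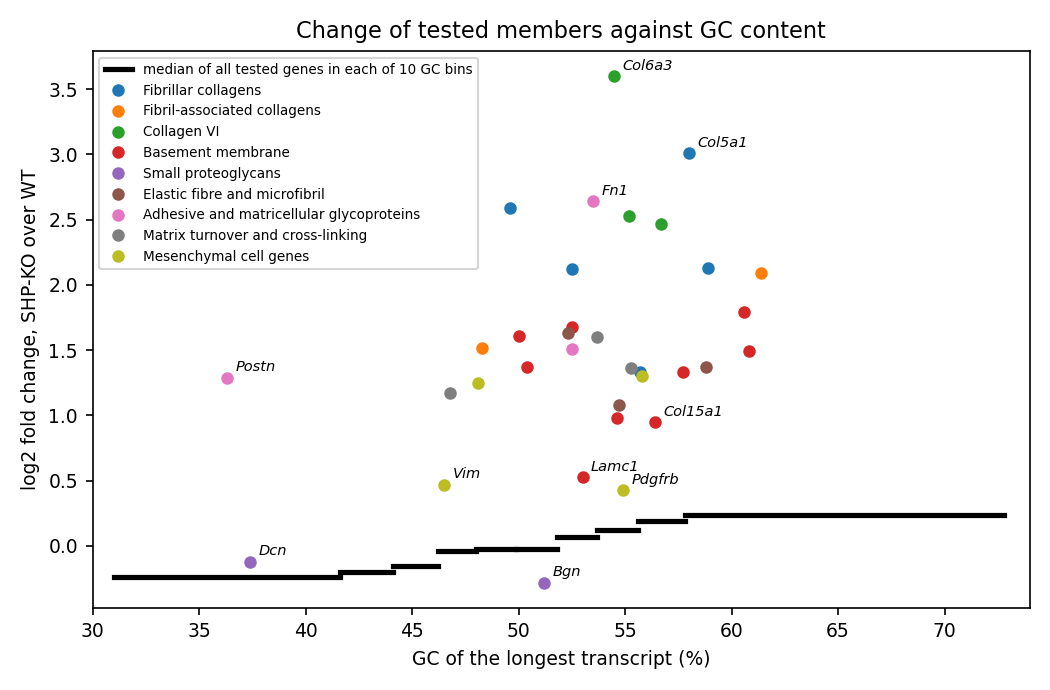
Log2 fold change (SHP-KO over WT) of the 34 tested members against the GC of their longest transcript, coloured by role; black bars are medians of all tested genes in 10 GC bins. The bars climb from -0.24 to 0.24, and of the members only Bgn lies below its bar.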

How the data were processed

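RNA of 6 libraries (3 WT, 3 SHP-KO) was sequenced. The deposited counts are whole-number reads per gene from featureCounts 1.5.2, unstranded over exons with an mm9 annotation, per the file headers, after STAR 2.6.0c per the submitters' processing notes. Library numbers inside the count files' headers differ from those in the files' names, so each file was taken as the sample it is deposited under, and group and replicate number rest on that sample's title. The authors' deposited table gives log2 fold changes, log2 mean CPM and p-values with adjusted p-values. Counts of 23284 genes were filtered with filterByExpr (minimum count 10), scaled by TMM and tested with the robust quasi-likelihood fit of edgeR 4.0.16 in R 4.3.3, and p-values were adjusted by Benjamini-Hochberg over all 12106 tested genes (threshold 0.05). The SE of a log2 fold change comes from that fit. Count ratios use summed counts over effective library sizes. Their exact 95% binomial intervals cover counting error only, since counts were pooled over the libraries of a group. Reads carried no molecular identifiers, so copies of the same molecule could not be told apart. RPKM is CPM per kilobase of the counted exons.

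Members, gene lists and ratios were chosen with earlier results of these data known. Every member was described, and of each other list the 3 genes with the smallest p and those that went against the majority were named. Tgfbr1, Tgfbr2, Hspg2, Lama3, Ogn, Prelp, Aspn and Fmod were named after their values were seen. A few genes under this rule are not reported here. GC came from GENCODE M21 transcripts (GRCm38) matched by symbol. Alternatives were RLE or no scaling, other filters, DESeq2 1.42.0, limma-voom (limma 3.58.1), no robust estimation, a replicate block, each library left out, and an exact test with an assumed CV of 0.2, and, added after the data were seen, a GC and length offset.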

Additional observations from a re-analysis of the deposited data

How the results depend on the processing

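The number of members higher in SHP-KO was 32 with RLE scaling, without scaling factors, with a filter of 1 CPM in 3 libraries, DESeq2, limma-voom and no robust estimation, 33 without a filter on low counts (which also tests the sparse members), and 30 with the exact test at an assumed CV of 0.2 and with the GC and length offset, and it ran from 30 to 33 when 1 library was left out. The number lower was 0 as reported and 1 (Bgn) without a filter on low counts (log2 -0.34, adjusted p 0.043, edgeR), and ran from 0 to 1 when 1 library was left out. Dcn was at log2 -0.36 to 0.014 when 1 library was left out, changing sign without SHP-KO replicate 2, and at 0.043 with the GC and length offset; it was called in none of these. Over all genes 8543 were called by the quasi-likelihood test and 4483 by the exact test at an assumed CV of 0.2. Lamc1, Pdgfrb and Vim did not pass the exact test at an assumed CV of 0.2 (adjusted p 0.18, 0.25 and 0.18). With the replicate number as a block 32 members were higher and 0 lower, and no call changed. Same-numbered libraries of the groups deviated together with correlations of 0.0185, 0.0213 and -0.0064, and WT replicate 3 correlated best with another number, so the numbers were not taken as pairs. Without scaling factors the median of all genes was -0.050 in place of -0.012. Depth limits what can be said of Col14a1, Lum, Fbln2 and Lox.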
